A study of Mus musculus with 20 samples.

Results

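Serpins are a family of structurally alike proteins, most of which inhibit serine or cysteine proteases, while some carry hormones or fold collagen. The genes described here are the protein-coding mouse genes named Serpin with a clade letter from a to i and a number. The count table held 61 of them, and 31 had at least 10 counts in at least 5 of the 20 libraries, which was the condition for being kept. Of the 30 others, 12 had no count in any library and 18 had some. Just outside the limit lay Serpina3c, with 10 or more counts in 4 libraries. Of the genes kept, Serpina11, Serpina12, Serpina1f, Serpina3k, Serpina3m, Serpina9 and Serpind1 met it in the fewest libraries, 10 each. These were all the kidneys for Serpina1f and all the livers for the other genes. The 31 genes fall into clade A with 17 genes, clade B with 5, clades E and F with 2 each, and clades C, D, G, H and I with 1 each. Of the clade A genes 16 lie in 1 cluster of 800 kb at chr12:103614786-104414329 (mm10 gene models of the count table), and Serpina7 lies on chromosome X.

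An inhibitory serpin presents a flexible loop to its target protease as bait, and when the protease cuts the loop, the serpin snaps into a new shape and traps the enzyme. The liver secretes most plasma serpins, among them alpha-1-antitrypsin, antithrombin, alpha-2-antiplasmin and C1 inhibitor, which restrain leukocyte proteases, coagulation, fibrinolysis and complement. Clade B serpins mostly stay inside cells, Hsp47 is a collagen chaperone of the endoplasmic reticulum, and the carriers of corticosteroids and thyroxine are serpins that inhibit no protease.

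RNA was sequenced from flash-frozen kidney and liver of male mice on the C57BL/6 background. The 4 groups were kidney labelled Lxrα-/-, kidney labelled wild type, liver labelled Lxrα-/- and liver labelled wild type, with 5 libraries each. The deleted gene, Nr1h3, encodes Lxrα, a receptor for oxysterols that switches on genes for exporting cholesterol and making lipids. The titles number the labelled knockout mice 1 to 5 and the wild-type mice 1, 3, 4, 5 and 6, and libraries are named by these numbers. The labels do not give age, diet or the targeted part of Nr1h3, nor say whether the mice were littermates, and the p-values measure the spread between these samples only.

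Total counts ran from 23421561 to 35376342 per library. Nr1h3 transcripts were higher in the mice labelled knockout, at 103 ± 18.8 CPM (counts scaled for library size on 1 scale for all libraries) in labelled knockout kidney and 41.4 ± 2.14 CPM in wild-type kidney, and at 209 ± 24.8 CPM in labelled knockout liver and 122 ± 17.9 CPM in wild-type liver (SD, n = 5 each; edgeR adjusted p = 0.00209 in kidney and 0.00277 in liver). This runs against the label as far as a count over the whole gene can show, and the counts do not tell a changed transcript from an intact one, so the groups are called labelled knockout and all directions below follow the labels. Hepatocyte markers were called higher in wild-type liver than in wild-type kidney in 11 of 11, and proximal tubule markers the other way in 12 of 12. Wild-type kidney 3 had 50.8% of its counts on mitochondrial genes and wild-type kidney 1 had 7.21%, against 12.6% to 21.1% in the other 8 kidneys. Labelled knockout livers 4 and 5 had 10004 and 18663 CPM of Saa1, a major acute phase protein, against 55.7 to 138 CPM in labelled knockout livers 1 to 3 and 65.8 to 135 CPM in wild-type livers.

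Serpin transcripts were far more abundant in liver than in kidney. The 31 genes together took 0.0761% to 0.134% of the counts in labelled knockout kidneys, against 0.0536% to 0.121% in wild-type kidneys. In liver they took 4.58% to 5.77% in labelled knockout mice and 3.29% to 4.13% in wild-type mice, so the liver groups did not overlap. Between the tissues of wild-type mice, 7 serpin genes were called higher in kidney and 21 lower by edgeR's quasi-likelihood test at an adjusted p under 0.05. Of all 16645 genes tested in that comparison, 53.8% were called, 29.6% higher and 24.2% lower in kidney. The median log2 difference, kidney minus liver, was -6.40 over the serpin genes and 0.05 over all genes. Serpina11, Serpina12, Serpina1f, Serpina3k, Serpina3m, Serpina9, Serpind1, Serpina6, Serpina3n and Serpini1 were kept only through the tissue where they were high. Their calls, and the median, therefore rest in part on how the genes were chosen. Scaling by library size alone moved the median over all genes to 0.69 and left the 28 serpin calls in place.

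**Figure D1:**
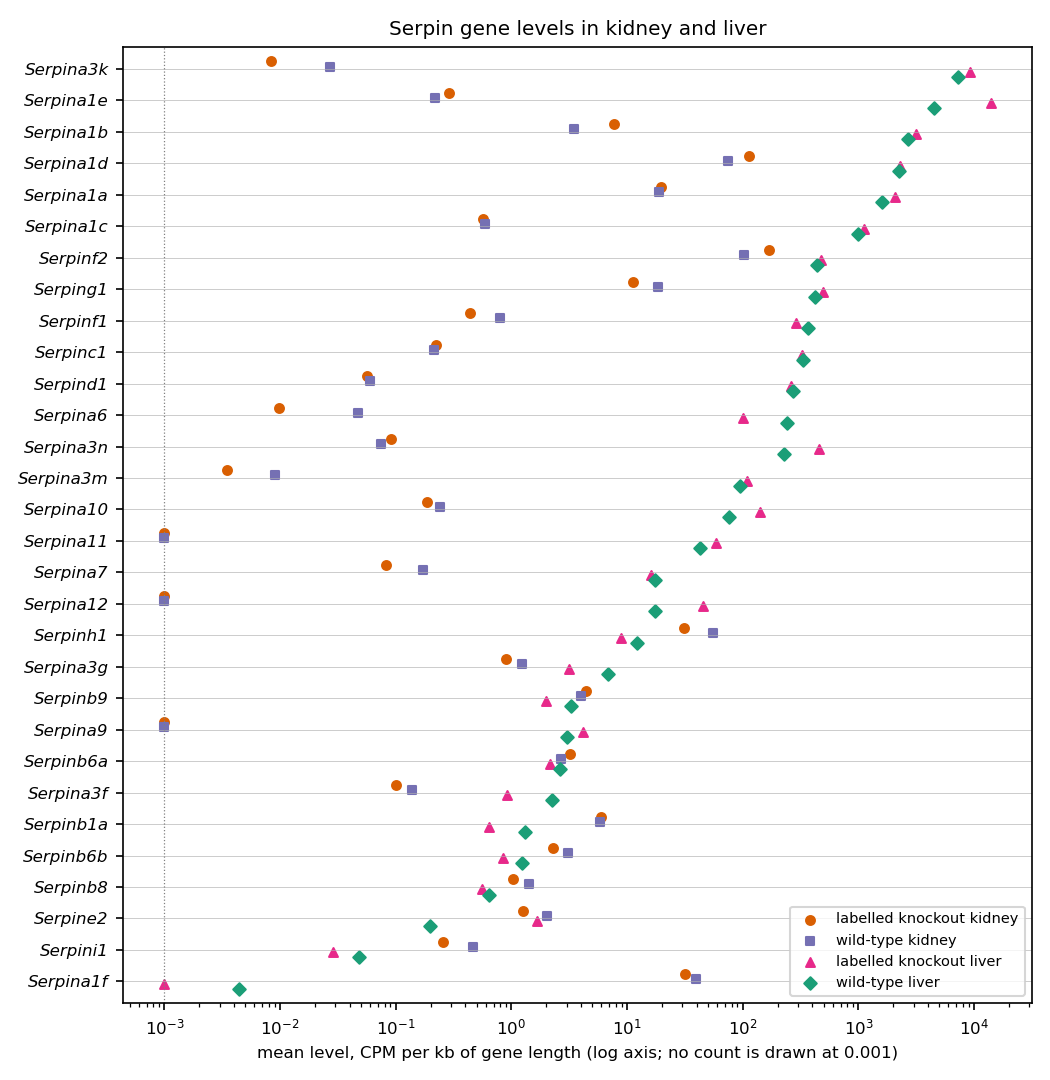
Mean level of each of 30 of the 31 serpin genes in labelled knockout kidney, wild-type kidney, labelled knockout liver and wild-type liver, in CPM per kb of gene length on a log axis, n = 5 libraries a group. Serpina3k and the alpha-1-antitrypsin copies lead in liver, Serpinf2 leads in kidney, and Serpina1f stands out as high in kidney with almost no count in liver.

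Per length, the highest serpin levels in liver belonged to Serpina3k and the alpha-1-antitrypsin copies Serpina1e, Serpina1b, Serpina1d and Serpina1a. Serpina3k, a plasma protease inhibitor of the antichymotrypsin group, averaged 9167 ± 652 CPM per kb in labelled knockout liver and 7318 ± 490 CPM per kb in wild-type liver (SD, n = 5 each). Its libraries held 18041, 17514, 18202, 20679 and 19846 CPM in labelled knockout livers 1 to 5, against 15425, 14955, 16372, 14930 and 13582 CPM in wild-type livers 1, 3, 4, 5 and 6. Every labelled knockout liver was above every wild-type liver, yet the log2 difference of 0.31 (SE 0.13) was not called by edgeR (adjusted p = 0.203), while DESeq2 called it at 0.33 (adjusted p = 0.00503). The annotated spans of Serpina3k and Serpina3m begin at the same base and overlap, and 14.0% of the 50-base stretches of Serpina3k transcripts also occur in transcripts of other genes, so its counts may be split among neighbours.

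In kidney the 5 highest serpins per length were Serpinf2, Serpina1d, Serpina1f, Serpinh1 and Serpina1a in both genotypes. Serpinf2, alpha-2-antiplasmin, which blocks plasmin, had 336, 301, 395, 416 and 507 CPM in labelled knockout kidneys 1 to 5, against 265, 148, 261, 235 and 293 CPM in wild-type kidneys 1, 3, 4, 5 and 6. All 5 labelled knockout kidneys lay above all 5 wild-type kidneys, and the log2 difference of 0.67 (SE 0.22) was not called by edgeR (adjusted p = 0.125), while DESeq2 called it at 0.71 (adjusted p = 0.0243). With all 20 libraries in 1 fit the same difference was 0.70 and passed (edgeR adjusted p = 0.0389). Serpina1f had 37.9, 120, 68.7, 105 and 168 CPM in labelled knockout kidneys, against 104, 82.9, 109, 183 and 153 CPM in wild-type kidneys, and these ranges overlapped. It had no count in any labelled knockout liver and 2 counts in all wild-type livers together. The kidney-to-liver ratio in wild-type mice was 7664 (95% counting interval 2121 to 63284).

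Other serpins higher in wild-type kidney than in wild-type liver were Serpine2 by 3.36, Serpini1 (neuroserpin, an inhibitor of tissue plasminogen activator) by 3.22, Serpinh1 by 2.18, and the intracellular Serpinb1a by 2.14 and Serpinb6b by 1.31 on the log2 scale, and Serpinb8. The largest of their adjusted p-values was 0.00734 (edgeR). The plasma serpins lay at the other end, with antithrombin (Serpinc1) at -10.59, heparin cofactor II (Serpind1) at -12.08 and C1 inhibitor (Serping1) at -4.52. Serpina11, Serpina12 and Serpina9 had no count in any kidney, which puts them at least 4313-fold, 3975-fold and 697-fold lower in wild-type kidney than in wild-type liver, with 3 counts over the group as the floor. Serpinb6a and Serpinb9 were not called between the tissues by edgeR.

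In liver, 6 serpin genes differed by genotype in edgeR's test. Serpine2, Serpina12 and Serpina1e rose, and Serpina3f, Serpina3g and Serpina6 fell in labelled knockout mice, among 29 serpin genes tested. Of all 14822 genes tested in liver, 6.02% were called, 1.94% higher and 4.08% lower. These were 893 genes, against 1410 by DESeq2 and 575 without wild-type liver 6 (edgeR). The median log2 difference was 0.03 over the serpin genes and -0.00 over all genes, with 15 serpin genes above 0 and 14 below. Groups did not overlap for 5 serpin genes on the higher side and 4 on the lower side, against 2.44% of all genes on the higher side and 4.41% on the lower, 6.85% in all. These are bulk tissue values, in which fewer cells of a type and less RNA per cell cannot be told apart.

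**Figure D2:**
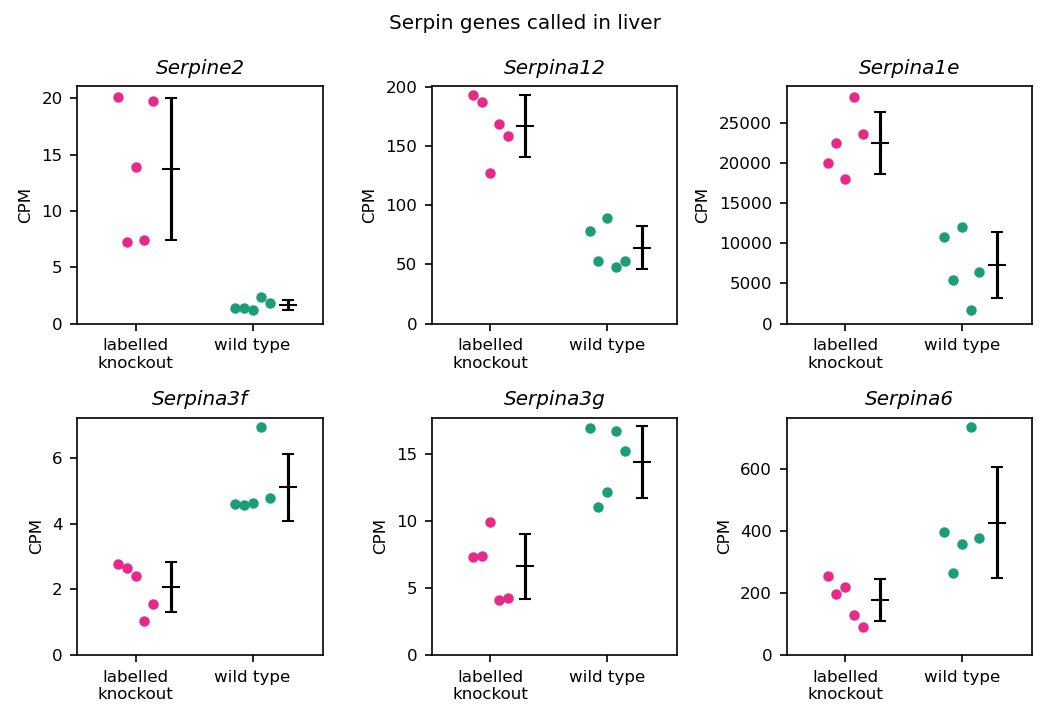
CPM of the 6 serpin genes called in liver, with labelled knockout livers left and wild-type livers right. Points are the 5 libraries of a group and bars the mean ± SD; the points of the groups overlap in none of the 6 panels.

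Serpine2 encodes protease nexin-1, a matrix-bound inhibitor of thrombin and of the plasminogen activators. Its level was 20.2, 7.26, 13.9, 7.42 and 19.8 CPM in labelled knockout livers 1 to 5, against 1.41, 1.40, 1.17, 2.33 and 1.87 CPM in wild-type livers 1, 3, 4, 5 and 6. The lowest labelled knockout liver was above the highest wild-type liver, and the labelled knockout livers overlapped the 9.78 to 22.9 CPM of wild-type kidneys. The log2 difference in liver was 3.05 (SE 0.34; edgeR adjusted p = 0.000212). It was called under all 17 alternatives tried, with values from 2.87 to 3.22.

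Kidney gave Serpine2 no such rise. Its level was 8.98, 14.2, 11.2, 9.87 and 8.06 CPM in labelled knockout kidneys 1 to 5, against 14.2, 9.78, 22.9, 19.5 and 17.6 CPM in wild-type kidneys 1, 3, 4, 5 and 6. The ranges overlapped through wild-type kidney 3, the library with the high mitochondrial share. The log2 difference was -0.71 (SE 0.23) and was not called with all libraries (edgeR adjusted p = 0.122), and it was -0.83 and called without wild-type kidney 3 (edgeR adjusted p = 0.0466), and -0.96 and called without wild-type kidneys 1 and 3 (edgeR adjusted p = 0.0142). The test of the difference between tissues, the kidney effect minus the liver effect, gave -3.74 (SE 0.42; edgeR adjusted p = 1.97e-05). That test held 31 serpin genes, of which 20 had also been tested in each tissue on its own. Serpina11, Serpina12 and Serpina9 had no count in any kidney, so no difference between tissues could be called for them. Serpine2 was the 1 serpin gene called of the 31, where 1.51% of all genes were called, 0.568% in its direction. These were 265 genes, against 611 by DESeq2, and 165, 487, 171 and 173 without labelled knockout kidney 4, wild-type kidney 6, wild-type liver 5 or wild-type liver 6 (edgeR). It was called under all 27 alternatives, with values from -3.98 to -3.56.

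The promoter window of Serpine2 is shown because it gave the largest genotype difference of the serpin genes in either tissue. In these windows, taken from RefSeq on GRCm38.p6, 250 bases before and 50 after the RefSeq start are printed 5′ to 3′ on the gene's strand, and capitals mark matches to any of 6 motifs. The motifs, searched on both strands, were the TATA box TATAAA, the nuclear receptor half-site AGGTCA, the direct repeat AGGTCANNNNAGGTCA bound by LXR with RXR, the HNF1 half-site GTTAAT, the STAT site TTCNNNGAA and the interferon-response core GAAANNGAAA. A direct repeat also counts as half-sites. Serpine2 lies on the minus strand at chr1:79858616-79858915, its RefSeq start is 2515 bases from the gene start in the count table, 77.7% of its bases are G or C, and none of the 6 motifs occurred.
Serpine2: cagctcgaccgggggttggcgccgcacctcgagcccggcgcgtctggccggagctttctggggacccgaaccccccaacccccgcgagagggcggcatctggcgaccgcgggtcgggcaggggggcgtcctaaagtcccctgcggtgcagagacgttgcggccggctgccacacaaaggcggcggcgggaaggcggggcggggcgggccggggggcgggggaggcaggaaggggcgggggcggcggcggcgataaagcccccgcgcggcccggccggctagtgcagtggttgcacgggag

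Serpina12 encodes vaspin, a serpin first described in adipose tissue that inhibits a tissue kallikrein. It had 193, 188, 127, 169 and 158 CPM in labelled knockout livers 1 to 5, against 78.6, 53.0, 89.1, 47.5 and 52.8 CPM in wild-type livers 1, 3, 4, 5 and 6. No value of one group reached the other. The log2 difference was 1.37 (SE 0.19; edgeR adjusted p = 0.00104), called under all 17 alternatives with values from 1.27 to 1.53. Its transcript shared no 50-base stretch with other genes. The Serpina12 window, on the minus strand at chr12:104044394-104044693, is shown as the promoter of the serpin with the second smallest p in liver, and it too held none of the 6 motifs.
Serpina12: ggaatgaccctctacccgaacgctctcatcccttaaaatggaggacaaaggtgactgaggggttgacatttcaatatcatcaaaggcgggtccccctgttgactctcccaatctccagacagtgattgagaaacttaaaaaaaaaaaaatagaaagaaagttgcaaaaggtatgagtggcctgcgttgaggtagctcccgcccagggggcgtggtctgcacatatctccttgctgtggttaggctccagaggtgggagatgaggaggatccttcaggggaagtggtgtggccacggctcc

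Serpina1e is 1 of 5 near-identical mouse genes, Serpina1a to Serpina1e, that encode alpha-1-antitrypsin, the main plasma inhibitor of neutrophil elastase. It had 20009, 22526, 18026, 28275 and 23642 CPM in labelled knockout livers 1 to 5, against 10755, 5472, 12040, 1741 and 6427 CPM in wild-type livers 1, 3, 4, 5 and 6. The labelled knockout livers were all above the wild-type livers, whose own values spread widely, with wild-type liver 5 the lowest. The log2 difference was 1.61 (SE 0.39; edgeR adjusted p = 0.0285). Of 17 alternatives 7 lost this call. The adjusted p (edgeR) was 0.0986 without labelled knockout livers 4 and 5, 0.0509 without labelled knockout liver 2, 0.0656 without labelled knockout liver 4, 0.0706 without wild-type liver 3 and 0.0727 without wild-type liver 6. With all 20 libraries in 1 fit it was 0.0799 (edgeR).

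None of the other alpha-1-antitrypsin copies was called in liver by edgeR, and DESeq2 called Serpina1a. Serpina1a had 4058, 3509, 4172, 3679 and 3650 CPM in labelled knockout livers, against 3294, 2608, 3056, 3304 and 2360 CPM in wild-type livers, with no overlap, and its log2 difference was 0.37 by edgeR (adjusted p = 0.145) and 0.39 by DESeq2 (adjusted p = 0.0213). Serpina1b had 8281, 7366, 7754, 7398 and 6863 CPM in labelled knockout livers, against 6064, 5759, 6488, 8313 and 5736 CPM in wild-type livers. The wild-type range of Serpina1b reached above the labelled knockout range through wild-type liver 5, and its difference of 0.21 was not called (edgeR adjusted p = 0.465). Serpina1d had 3612, 3270, 3459, 3030 and 2601 CPM in labelled knockout livers, against 2996, 2853, 2924, 4004 and 2756 CPM in wild-type livers, a difference of 0.03. Serpina1c differed by 0.18, and neither Serpina1d nor Serpina1c was called (edgeR adjusted p = 0.927 and 0.594).

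Summed over the 5 copies, labelled knockout livers held 35348 to 43557 CPM and wild-type livers 17931 to 25851 CPM, so the sums did not overlap. Serpina1e supplied 51.0% to 64.9% of the summed counts in labelled knockout livers and 9.24% to 46.6% in wild-type livers. In kidney Serpina1d supplied 69.1% to 79.9% in labelled knockout mice and 62.8% to 73.0% in wild-type mice, and Serpina1e at most 0.425% in any kidney. Kidney Serpina1d was 68.2, 169, 125, 188 and 236 CPM in labelled knockout mice 1 to 5, against 99.5, 41.3, 97.4, 133 and 150 CPM in wild-type mice. Kidney Serpina1a was 12.3, 43.0, 19.4, 40.9 and 63.6 CPM in labelled knockout mice, against 29.8, 20.5, 28.9, 51.3 and 42.2 CPM in wild-type mice. Both kidney ranges overlapped and neither gene was called there.

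**Figure D3:**
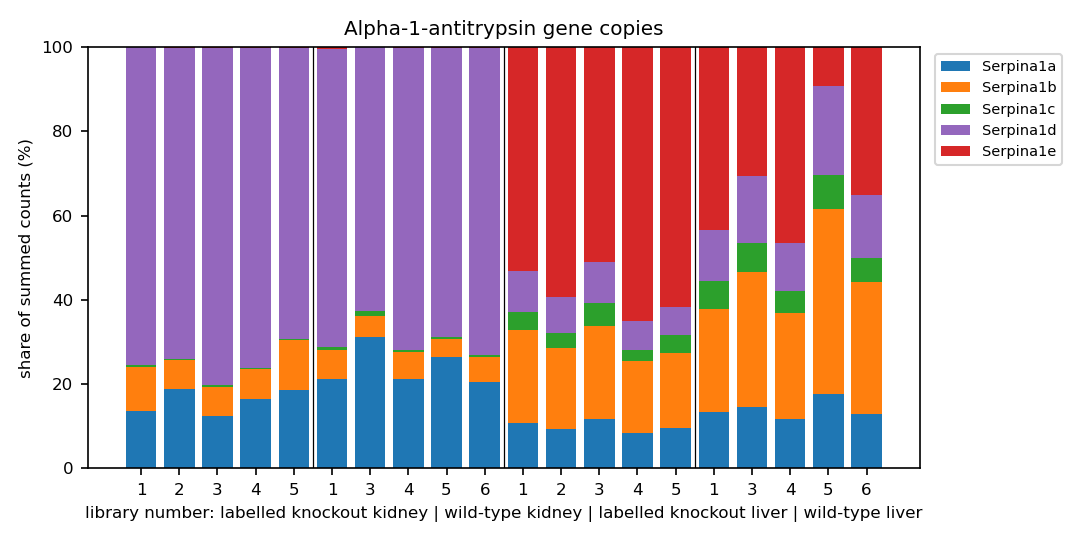
Share of the summed counts of Serpina1a to Serpina1e taken by each copy, in percent, 1 bar per library, in labelled knockout kidney, wild-type kidney, labelled knockout liver and wild-type liver. Serpina1d fills most of every kidney bar, and the Serpina1e share is at least 51.0% in every labelled knockout liver and at most 46.6% in the wild-type livers.

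The 5 copies are hard to tell apart by short reads. Their longest transcripts were 95.4% to 98.3% identical over the 10 pairs, and the share of 50-base stretches found in transcripts of other genes was 34.6% for Serpina1e, 29.5% for Serpina1b, 50.9% for Serpina1d, 57.6% for Serpina1a and 79.3% for Serpina1c. How reads shared between copies were counted is not given in the sources used here, so the split among copies is uncertain, while the sum depends on it less. The annotated span of Serpina1b also contains Serpina1d. Each of the 5 RefSeq windows holds 1 HNF1 half-site, GTTAAT, which occurs in 7.10% of all 32851 windows and in 7 of the 23 windows of serpin genes kept. The 140 bases from 80 before this half-site are shown for Serpina1e and Serpina1b, the called copy and the copy closest to it, which was chosen after the comparison, with capitals at the 3 positions where they differ. They lie on the minus strand at chr12:103956916-103957055 and chr12:103738156-103738295. Serpina1e differed from Serpina1a at 4, from Serpina1c at 5 and from Serpina1d at 8 of these 140 positions. The RefSeq start of Serpina1e is 2078 bases and that of Serpina1b 92184 bases from the gene start in the count table.
Serpina1e: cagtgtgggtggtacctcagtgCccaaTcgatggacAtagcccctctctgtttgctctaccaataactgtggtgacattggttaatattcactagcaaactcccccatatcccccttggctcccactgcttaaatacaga
Serpina1b: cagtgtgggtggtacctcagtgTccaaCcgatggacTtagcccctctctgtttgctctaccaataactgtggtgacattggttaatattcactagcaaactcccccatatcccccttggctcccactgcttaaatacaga

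Serpina3f and Serpina3g belong to the antichymotrypsin-like group of mouse clade A, and Serpina3g (Spi2A) is known in mouse as an inhibitor of lysosomal cathepsins in blood cells. Serpina3f had 2.76, 2.66, 2.41, 1.02 and 1.56 CPM in labelled knockout livers 1 to 5, against 4.61, 4.56, 4.64, 6.95 and 4.79 CPM in wild-type livers 1, 3, 4, 5 and 6. All labelled knockout livers were below all wild-type livers. The log2 difference was -1.31 (SE 0.27; edgeR adjusted p = 0.0116). With all 20 libraries in 1 fit this call was lost (edgeR adjusted p = 0.0847).

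Serpina3g had 7.32, 7.42, 9.94, 4.13 and 4.29 CPM in labelled knockout livers, against 16.9, 11.1, 12.2, 16.7 and 15.2 CPM in wild-type livers, again with no overlap, and fell by 1.13 on the log2 scale (SE 0.24; edgeR adjusted p = 0.0143). Labelled knockout livers 4 and 5 were the lowest for both genes. Without these livers both were still called lower. In kidney the 2 genes were low, at 0.0602 to 0.621 CPM of Serpina3f and 0.864 to 4.15 CPM of Serpina3g in labelled knockout mice, against 0.0414 to 0.600 CPM of Serpina3f and 1.87 to 3.18 CPM of Serpina3g in wild-type mice, and neither was called. Lymphocyte markers were lower in the same livers, with 5 of 8 called lower and 1, Cd4, higher, and their summed level was 5.56 to 9.88 CPM in labelled knockout livers and 11.3 to 16.0 CPM in wild-type livers. Kupffer cell markers were called lower in 4 of 6, with sums of 67.7 to 165 CPM in labelled knockout livers and 243 to 395 CPM in wild-type livers, and none of the 6 was at 0. Without labelled knockout livers 4 and 5, 2 of the 8 lymphocyte markers and 4 of the 6 Kupffer cell markers were called lower. Cd5l was then at -9.35 on the log2 scale (edgeR adjusted p = 1.25e-06). The other Kupffer cell markers called, Timd4, Clec4f and Vsig4, were at -1.94, -1.34 and -0.89, and Marco and Cd163 were not called. The part of these markers in the 2 serpin results was not tested.

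The windows of Serpina3f and Serpina3g are shown because both genes fell and both hold a STAT site, 121 and 33 bases before their RefSeq starts. They lie on the plus strand at chr12:104214294-104214593 and chr12:104235897-104236196, and the RefSeq start of Serpina3g is 98 bases from the gene start in the count table. STAT sites occur in 8.30% of all windows and in 5 of 23 serpin windows. Serpina3f also holds a TATA box on the other strand, a motif found in 13.6% of all windows and in 2 of 23. The longest transcripts of the 2 genes were 87.6% identical, and 10.6% of the 50-base stretches of Serpina3f and 15.5% of those of Serpina3g occur in other genes.
Serpina3f: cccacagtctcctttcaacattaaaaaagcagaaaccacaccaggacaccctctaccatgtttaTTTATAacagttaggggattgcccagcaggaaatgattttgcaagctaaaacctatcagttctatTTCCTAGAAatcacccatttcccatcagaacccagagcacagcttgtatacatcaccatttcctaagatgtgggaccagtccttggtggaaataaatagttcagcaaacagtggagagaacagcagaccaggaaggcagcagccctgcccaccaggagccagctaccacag
Serpina3g: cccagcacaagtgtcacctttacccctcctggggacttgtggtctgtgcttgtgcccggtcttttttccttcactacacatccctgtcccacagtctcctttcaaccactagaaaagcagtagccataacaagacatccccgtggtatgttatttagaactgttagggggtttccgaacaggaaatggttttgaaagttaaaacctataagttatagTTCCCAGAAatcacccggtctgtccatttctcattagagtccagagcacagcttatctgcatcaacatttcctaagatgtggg

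No serpin window held the direct repeat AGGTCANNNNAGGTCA, which occurs in 0.015% of all windows. The half-site AGGTCA was found in 5 of 23 serpin windows and in 16.3% of all windows, and the interferon-response core GAAANNGAAA in 2 of 23 and in 3.44%. In Serpinb6a a match to that core shares bases with a STAT match.

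Serpina6 encodes corticosteroid-binding globulin, the plasma carrier of glucocorticoids. It had 255, 198, 219, 128 and 90.3 CPM in labelled knockout livers 1 to 5, against 399, 265, 360, 735 and 379 CPM in wild-type livers 1, 3, 4, 5 and 6. The groups did not overlap, labelled knockout livers 4 and 5 were the lowest, and wild-type liver 5 was far above the others. Adipocyte markers also stood apart in wild-type liver 5, where the 6 listed genes summed to 102 CPM, against 4.81 to 7.13 CPM in labelled knockout livers and a median of 6.37 CPM over wild-type livers. Cfd (adipsin) was at 66.1 CPM there and Adipoq (adiponectin) at 12.9 CPM, against at most 1.36 and 0.146 CPM in the other 9 livers, and their part in the Serpina6 value was not tested. Serpina6 fell by 1.27 on the log2 scale (SE 0.31; edgeR adjusted p = 0.0275). Without labelled knockout livers 4 and 5 the difference was -0.92 and not called (edgeR adjusted p = 0.0967). The call was also lost without labelled knockout liver 4 (edgeR adjusted p = 0.0730), without wild-type liver 5 (edgeR adjusted p = 0.0631), without wild-type liver 6 (edgeR adjusted p = 0.0544) and with all 20 libraries in 1 fit (edgeR adjusted p = 0.0877). Serpina7, the thyroxine-binding globulin, had 21.8 to 68.3 CPM in labelled knockout livers and 28.5 to 74.8 CPM in wild-type livers and was not called (edgeR adjusted p = 0.867). Among the listed clearance receptors and carriers, Lrp2, a large endocytic receptor, rose by 2.41, while Vldlr, a related receptor, fell by 1.88 and Alb, the carrier albumin, fell by 0.75 on the log2 scale, 3 of 6 tested (edgeR). Without labelled knockout livers 4 and 5 only Vldlr of these was called, at -1.63 (edgeR adjusted p = 0.0414).

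Several liver serpins were highest in labelled knockout livers 4 and 5, the livers with high acute phase transcripts. Serpina3n, an antichymotrypsin-like acute phase serpin, had 440, 393, 332, 1413 and 2116 CPM in labelled knockout livers 1 to 5, against 344, 421, 470, 553 and 574 CPM in wild-type livers 1, 3, 4, 5 and 6. Serpina10, the protein Z-dependent inhibitor of factor Xa, had 256, 265, 242, 766 and 944 CPM in labelled knockout livers, against 224, 250, 278, 310 and 276 CPM in wild-type livers. Serping1 had 914, 879, 871, 1575 and 1508 CPM in labelled knockout livers, against 1109, 836, 1040, 1002 and 937 CPM in wild-type livers. In each of the 3 genes labelled knockout livers 4 and 5 stood above every other liver. Labelled knockout livers 1 to 3 lay within the wild-type range, except liver 3 for Serpina3n, which was just below it.

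With all libraries the log2 differences were 0.97 for Serpina3n, 0.87 for Serpina10 and 0.21 for Serping1, none of them called (edgeR adjusted p = 0.255, 0.192 and 0.590). Without labelled knockout livers 4 and 5 they were -0.27, -0.06 and -0.14, and none was called. Serpina11 had 134 and 132 CPM in those livers against 56.8 to 78.8 CPM in labelled knockout livers 1 to 3 and 60.2 to 88.8 CPM in wild-type livers. The list of 17 acute phase plasma proteins without serpins had 7 members called higher, 17 above 0 and a median of 1.33, beside -0.00 over all genes. Saa2 at 7.75, Saa3 at 7.14, Saa1 at 5.93 and Saa4 at 1.41 had the smallest p-values among them (edgeR). Without those livers the list had none called higher, 1 called lower, 5 above 0 and a median of -0.20, beside 0.01 over all genes.

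**Figure D4:**
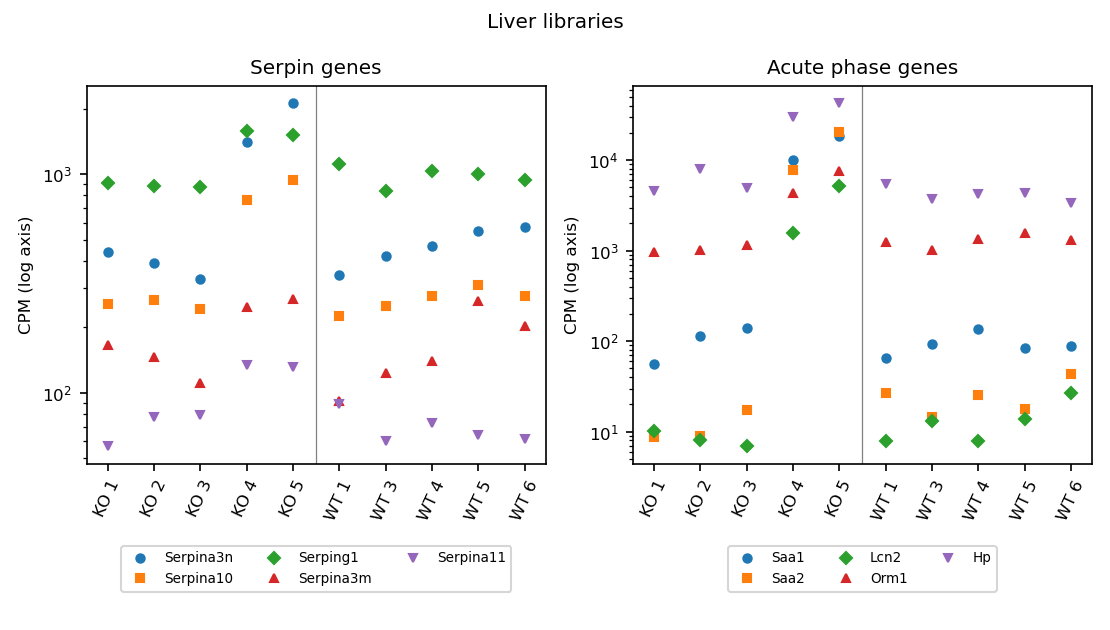
CPM on a log axis in the 10 livers, labelled knockout livers 1 to 5 left of the line and wild-type livers right of it. Left panel, 5 serpin genes; right panel, 5 acute phase genes. Labelled knockout livers 4 and 5 stand above the other 8 livers for Serpina3n, Serpina10, Serping1 and Serpina11 and for all 5 acute phase genes.

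The remaining liver serpins were not called by edgeR, and of them DESeq2 called Serpinf1 and Serpinb9. Among inhibitors of coagulation and fibrinolysis, antithrombin (Serpinc1) averaged 2758 CPM in labelled knockout liver and 2837 CPM in wild-type liver, a log2 difference of -0.05 with a 95% interval of -0.31 to 0.21. Heparin cofactor II (Serpind1) averaged 575 CPM in labelled knockout liver and 592 CPM in wild-type liver, a difference of -0.05 with an interval of -0.40 to 0.30. Alpha-2-antiplasmin (Serpinf2) averaged 1111 CPM in labelled knockout liver and 1025 CPM in wild-type liver, a difference of 0.10 with an interval of -0.19 to 0.40. None of 21 listed coagulation and fibrinolysis genes was called in liver by edgeR, 2 had an unadjusted p under 0.05, DESeq2 called 2, and the median was -0.13. Over all genes tested in liver, 3010 of 14822 had an unadjusted p under 0.05 (edgeR). Serpinf1, the pigment epithelium-derived factor, had 734, 742, 684, 704 and 519 CPM in labelled knockout livers, against 918, 851, 848, 901 and 806 CPM in wild-type livers. These did not overlap, and the difference was -0.36 by edgeR (adjusted p = 0.126) and -0.34 by DESeq2 (adjusted p = 0.0419).

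All 5 clade B genes had log2 differences below 0 in liver, from -1.06 for Serpinb1a, an inhibitor of neutrophil elastase, to -0.22 for Serpinb8, and none was called by edgeR. Serpinb9, the inhibitor of granzyme B, came nearest at -0.74 (edgeR adjusted p = 0.0866), was called by DESeq2 at -0.72 (adjusted p = 0.0337), and was called without wild-type liver 1 at -0.89 (edgeR adjusted p = 0.0244). Granzymes themselves fell, by a log2 difference of -2.16 for Gzma and -1.37 for Gzmb (edgeR), 2 of 7 granule and lysosomal proteases tested. Without labelled knockout livers 4 and 5, 3 of 7 tested were called lower. They were Gzma at -2.21, Prtn3 at -2.79 and Ctss at -0.68 (edgeR adjusted p = 0.0138, 0.0321 and 0.0324). Prtn3 was at 33.4 and 47.2 CPM in the livers left out. Gzmb, at -1.19, was not called then (edgeR adjusted p = 0.108). Serpinh1 averaged 21.5 CPM in labelled knockout liver and 30.0 CPM in wild-type liver, a difference of -0.49 that was not called (edgeR adjusted p = 0.181). Serpina9 and Serpina3m differed by 0.45 and 0.18 and were not called, and the value for Serpina3m was -0.21 without labelled knockout livers 4 and 5.

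**Figure D5:**
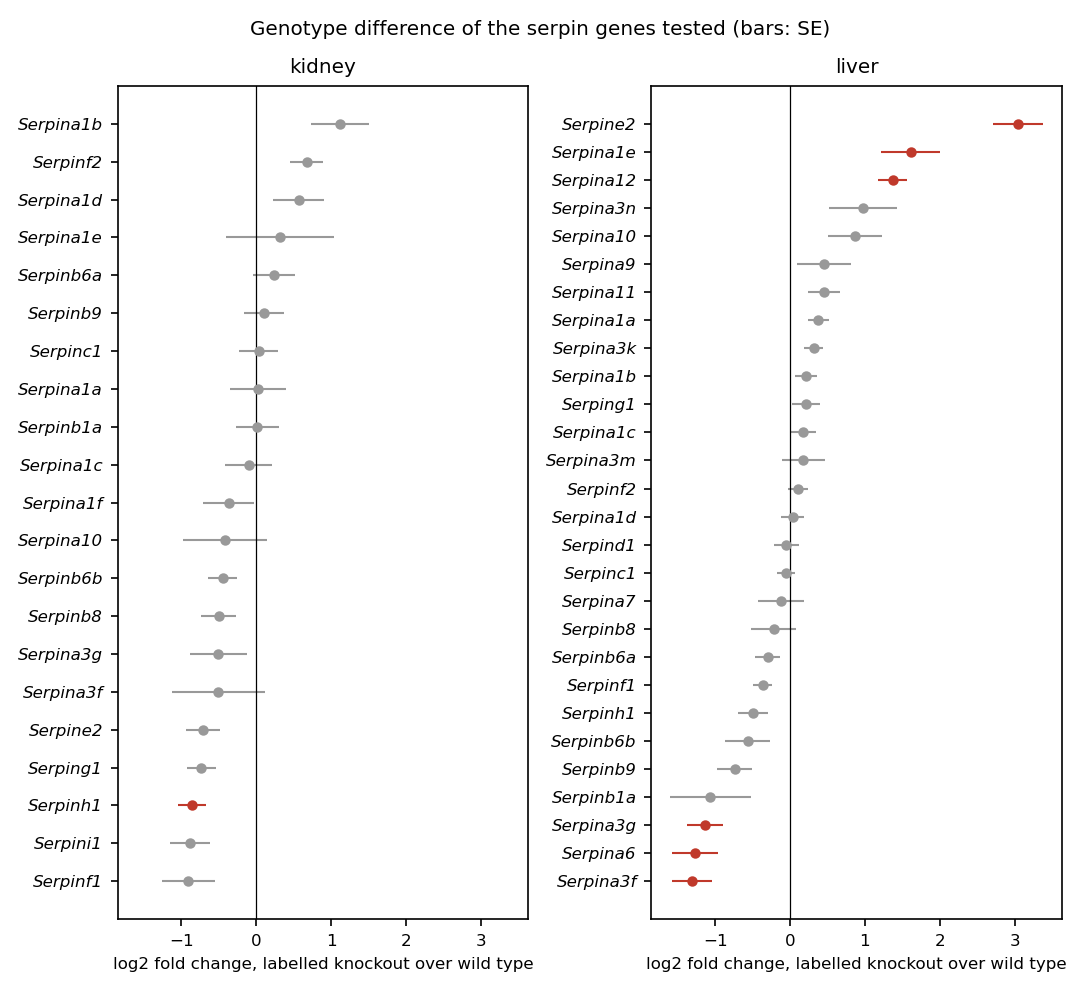
Log2 fold change, labelled knockout over wild type, with its standard error, for 21 of the 22 serpin genes tested in kidney and 28 of the 29 tested in liver. Red points passed the adjusted p threshold: Serpinh1 in kidney, and 3 genes on each side in liver.

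In kidney, 1 of 22 serpin genes tested was called by edgeR, the collagen chaperone Serpinh1, and it was lower. Of all 16500 genes tested in kidney, 2.26% were called, and those called lower were 1.87% of the genes tested. These were 373 genes in all, against 1151 by DESeq2. The count over all genes rested on single libraries, at 129, 150, 99 and 104 without labelled knockout kidney 1, 3, 4 or 5, and 175, 157 and 921 without wild-type kidney 4, 5 or 6 (edgeR). The median log2 difference was -0.39 over the serpin genes and -0.07 over all genes, with 9 serpin genes above 0 and 13 below. An unadjusted p under 0.05 (edgeR) was reached by 9 of the 22 serpin genes and by 3273 of all 16500 genes. Groups did not overlap for Serpinf2 on the higher side and Serpinh1 on the lower side, 2 of 22, against 3.07% of all genes on the higher side and 3.85% on the lower, 6.93% in all.

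Serpinh1, at chr7:99345376-99353239 on the minus strand, encodes Hsp47, which holds procollagen in shape in the endoplasmic reticulum. It had 54.9, 84.1, 90.2, 63.7 and 88.6 CPM in labelled knockout kidneys 1 to 5, against 117, 137, 147, 159 and 116 CPM in wild-type kidneys 1, 3, 4, 5 and 6. The groups did not overlap. Serpinh1 fell by 0.86 on the log2 scale (SE 0.19; edgeR adjusted p = 0.0332). The call was lost on leaving out labelled knockout kidney 1, 3, 4 or 5 (edgeR adjusted p = 0.0893, 0.0605, 0.111 and 0.0776) or wild-type kidney 4 or 5 (edgeR adjusted p = 0.0818 and 0.0862), while the difference stayed between -0.93 and -0.77. It was also lost with no count filter (edgeR adjusted p = 0.0674).

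Collagen genes fell in the same kidneys. Of 17 genes for collagen chains and collagen maturation 9 were called lower and none higher, 5 lay above 0, and the median was -1.17. Col3a1 and Col1a1, the main fibrillar collagen chains of interstitium, changed by -2.57 and -2.91 on the log2 scale, Col1a2 by -2.30 and Col5a1 by -2.03 (edgeR). Without wild-type kidneys 1 and 3, 9 of the 17 were again called lower and the median was -0.70. These were the listed collagen chains with Fkbp10 and Lox. The other maturation genes were not called, and 4 of them, P4ha1, P4ha2, P4hb and Crtap, lay above 0. Fibroblast markers, which share Col1a1, Col1a2 and Col3a1 with that list, were called lower in 5 of 8, with a summed level of 60.0 to 114 CPM in labelled knockout kidneys and 178 to 492 CPM in wild-type kidneys, and none was at 0. Proximal tubule markers summed to 36499 to 50102 CPM in labelled knockout kidneys and 21273 to 33191 CPM in wild-type kidneys, with 1 of 12, Slc22a6, called higher. Most of this sum was Kap, which was not called. It had 24600 to 38151 CPM in labelled knockout kidneys and 11475 to 24676 CPM in wild-type kidneys. Glomerular, endothelial and macrophage markers lay below 0 in 6 of 6, 8 of 8 and 7 of 7, with medians of -0.80, -0.79 and -0.58. Of these edgeR called 1 endothelial marker, and DESeq2 called 5 endothelial markers, 1 glomerular marker and no macrophage marker. Distal nephron and collecting duct markers lay above 0 in 3 of 8. The part of these cell types in the Serpinh1 result was not tested. In liver 5 of 16 genes of the collagen list were called lower with a median of -0.46, and 1 of 17, Col1a1, without labelled knockout livers 4 and 5. The test of the difference between tissues gave -0.34 for Serpinh1 (edgeR adjusted p = 0.594).

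Several other kidney serpins of the extracellular space lay below 0 without being called by edgeR, and DESeq2 called Serping1 and Serpini1 among them. C1 inhibitor (Serping1) had 19.2, 31.5, 34.3, 20.4 and 25.8 CPM in labelled knockout kidneys, against 43.3, 40.4, 54.0, 42.4 and 33.1 CPM in wild-type kidneys. These ranges overlapped only through labelled knockout kidney 3 and wild-type kidney 6. The difference was -0.73 by edgeR (adjusted p = 0.0691) and -0.69 by DESeq2 (adjusted p = 0.0237), and it was -0.81 and called without wild-type kidney 6 (edgeR adjusted p = 0.0347). Serping1 ends 6.41 Mb before Nr1h3 starts on chromosome 2, and the part of that position was not tested. Of its 10 listed complement partners, C1ra, a protease that C1 inhibitor blocks, fell by 0.87 on the log2 scale, and the other 9 were not called (edgeR). Without wild-type kidneys 1 and 3 C1ra was at -0.74 and not called (edgeR adjusted p = 0.0585), and C1qa, a chain of the C1 complex, was called at -0.74 (edgeR adjusted p = 0.0395).

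Serpini1 had 1.76, 2.34, 1.90, 1.83 and 1.48 CPM in labelled knockout kidneys, against 2.07, 2.65, 4.10, 4.85 and 3.18 CPM in wild-type kidneys. The groups overlapped through labelled knockout kidney 2 and wild-type kidney 1. Its difference of -0.89 was not called with all libraries by edgeR (adjusted p = 0.101), was -0.85 and called by DESeq2 (adjusted p = 0.0359), and was -1.14 and called without wild-type kidneys 1 and 3 (edgeR adjusted p = 0.0163). Serpinf1 at -0.91 was not called (edgeR adjusted p = 0.190). Serpina1b had 9.39, 15.4, 10.7, 17.5 and 40.3 CPM in labelled knockout kidneys, against 9.77, 3.36, 8.47, 8.63 and 11.8 CPM in wild-type kidneys. Labelled knockout kidney 5 was far above the rest, the ranges overlapped, and the difference of 1.11 was not called (edgeR adjusted p = 0.148). The 5 clade B genes ran from -0.50 to 0.23 in kidney with none called. Serpina10, Serpina1c, Serpina1e, Serpina3f and Serpinc1 averaged under 2 CPM in both kidney groups, and 9 serpin genes did not pass the filter on low counts there.

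Of 16 coagulation and fibrinolysis genes tested, Pros1, the cofactor protein S, fell by 0.72 on the log2 scale, and of 6 granule and lysosomal proteases Gzmb fell by 3.08 and Gzma fell by 2.42 in kidney (edgeR). Without wild-type kidneys 1 and 3, Pros1 was called lower at -0.85 and Proc was called higher at 0.75 (edgeR adjusted p = 0.00932 and 0.0352). Lymphocyte markers, which include Gzma, were called lower in 4 of 8 there, with sums of 3.35 to 5.25 CPM in labelled knockout kidneys and 7.70 to 13.3 CPM in wild-type kidneys, and 4 were again called lower without wild-type kidneys 1 and 3. The part of these cells in the granzyme values was not tested. In the growth hormone and STAT5 list, which holds signals known to govern several clade A serpins in mouse liver, Igf1 fell by 1.59 and the prolactin receptor Prlr fell by 2.82 in kidney, 2 of 11 tested, and Prlr fell by 0.70 in liver, 1 of 11 (edgeR). Without labelled knockout livers 4 and 5 Prlr was at -0.64 and not called in liver (edgeR adjusted p = 0.175), nor was any other of the 12 then tested. None of the 8 hepatocyte transcription factors tested in kidney and of the 12 tested in liver was called by edgeR or by DESeq2. At an unadjusted p under 0.05 (edgeR) there was 1 in kidney and 0 in liver. Over all genes there were 3273 of 16500 in kidney and 3010 of 14822 in liver.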

How the data were processed

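Whole-number counts per gene for 20 libraries, on gene models of build mm10, were deposited by the authors and are not normalized. StringTie, DESeq2 1.16.1 and HISAT2 2.0.5 stand in the submitters' processing notes, without their roles. The counting tool and its use of strand are not given in the sources used here. The members and gene lists were chosen with earlier results of these data known. Values of 1 serpin gene that was kept are not reported here. Symbols matched for 202 of 203 listed genes.

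Each comparison was fitted over all genes with edgeR 4.0.16 in R 4.3.3, using filterByExpr with a minimum count of 10, TMM scaling, the quasi-likelihood F test and Benjamini-Hochberg adjustment, called at an adjusted p under 0.05. Kidney and liver were fitted on their own 10 libraries, the difference between tissues on all 20, and wild-type kidney against wild-type liver on 10. Standard errors came from the log2 fold change and its F statistic, and 95% intervals from these and the degrees of freedom of the fit. Printed CPM were scaled by TMM factors from all 20 libraries. The fits were tested on simulated data, in which a gene's mean level was equal in all groups apart from the change put in. A log2 change of 1 was recovered in 29.3% of changed genes in kidney, 60.8% in liver and 19.4% in the difference between tissues. For a log2 change of 2 the shares were 88.7%, 95.9% and 77.8%. A gene that was not called may therefore still differ. Most serpin genes differed in level between kidney and liver, so the shares for the difference between tissues may not hold for them. Intervals and floors cover counting error only where they rest on counts.

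Every called serpin was named, with values per library where the log2 fold change was at least 1 in size or the level per length was among the 5 highest of a tissue. Of the lists up to 4 called genes with the smallest p were named, and genes that share reads were judged from 50-base stretches of GENCODE transcripts. The windows came from RefSeq promoters for 23 of the 31 genes. Same-numbered libraries of the 2 genotypes had correlations from 0.09 to 0.25 in kidney and from -0.04 to -0.00 in liver, so the numbers were not taken as pairs. As alternatives served DESeq2 1.42.0 with its Wald test, other scalings, no count filter, replicate blocks, a fit of all libraries, and leaving out libraries; leaving out labelled knockout livers 4 and 5 and the lists without the libraries that stand apart were added after seeing the data.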

Additional observations from a re-analysis of the deposited data

Results flagged for a closer look

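In 102 groups of 5 libraries, each a serpin gene in a tissue and genotype, 8 had 1 library far from the other 4. Chance would flag about 5% of groups if the values were normally distributed, which was not checked. The groups are not independent, since the same libraries recur in them. In labelled knockout kidneys, library 5 had 40.3 CPM of Serpina1b, against 9.39 to 17.5 CPM in the others. Labelled knockout kidney 2 had 0.621 CPM of Serpina3f and 4.15 CPM of Serpina3g, against at most 0.183 and 1.62 CPM in the others. In labelled knockout livers, library 5 had 519 CPM of Serpinf1, against 684 to 742 CPM. Wild-type liver 5 had 4004 CPM of Serpina1d, 6.95 CPM of Serpina3f and 735 CPM of Serpina6, against at most 2996, 4.79 and 399 CPM in the other wild-type livers. Wild-type liver 3 had 5.60 CPM of Serpinb8, against 1.87 to 2.90 CPM. Serpine2 was the serpin whose genotype effect differed between the tissues in the test of that difference, at -3.74 for kidney minus liver (edgeR adjusted p = 1.97e-05), with labelled knockout livers all above wild-type livers.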

How the results depend on the processing

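The cause of the changes below was not tested. In kidney the count of serpin genes called, 1 at first, was 4 with DESeq2, 0 with no count filter (with the filter, 9 of 22 serpin genes and 3273 of 16500 genes had an unadjusted edgeR p under 0.05), 2 with all 20 libraries in 1 fit, 3 without wild-type kidneys 1 and 3, and 0 to 2 on leaving out 1 library. Over all genes the kidney count, 373 at first, was 1151 with DESeq2 and 478 with no count filter. It was 948 with all 20 libraries in 1 fit, 590 without wild-type kidneys 1 and 3, and 99 to 921 leaving out 1 library. In liver the count of serpin genes called, 6 at first, was 10 with DESeq2, 3 with all 20 libraries in 1 fit, 4 without labelled knockout livers 4 and 5, and 4 to 7 on leaving out 1 library. Over all genes the liver count, 893 at first, was 1410 with DESeq2 and 773 with all 20 libraries in 1 fit. It was 636 without labelled knockout livers 4 and 5, and 575 to 913 on leaving out 1 library. With a replicate block by title number the counts of serpin genes called were 2 in kidney, where Serping1 was called beside Serpinh1 (-0.92, adjusted p = 0.0432), and 2 in liver, where Serpine2 and Serpina12 were called and Serpina1e (adjusted p = 0.108), Serpina3f (0.0697), Serpina3g (0.0855) and Serpina6 (0.181) were not (edgeR). Over all genes this block called 902 in kidney, against 373 without it, and 307 in liver, against 893 without it. With the mouse as a replicate block the difference between tissues called 1 serpin gene and wild-type kidney against wild-type liver 28, as without it.

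None of the 147 refitted values of called genes changed sign. Uncalled genes that did, on the log2 scale, were in kidney Serpina1a (-0.10 by library size alone, -0.16 with the replicate block, -0.22 without wild-type kidneys 1 and 3), Serpinc1 (-0.029 by library size alone, -0.015 with the block), Serpinb9 (-0.031 and -0.12) and Serpinb1a (-0.10 and -0.32, both by library size alone and without wild-type kidneys 1 and 3), and Serpinb6a (-0.015 without those kidneys). In liver they were Serpina1d (-0.040 by library size alone, -0.011 with the block) and, without labelled knockout livers 4 and 5, Serpinf2 (-0.014), Serping1 (-0.14), Serpina3n (-0.27), Serpind1 (0.033), Serpina10 (-0.063) and Serpina3m (-0.21). For kidney minus liver it was Serpinb6b (-0.045 without wild-type kidneys 1 and 3).

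On leaving out 1 library at a time, the values ran in kidney from -0.28 to 0.24 for Serpina1a, -0.25 to 0.081 for Serpina1c, -0.22 to 0.62 for Serpina1e, -0.17 to 0.21 for Serpinb1a, -0.081 to 0.24 for Serpinb9 and -0.15 to 0.17 for Serpinc1. In liver they ran from -0.010 to 0.13 for Serpina1d, -0.41 to 0.17 for Serpina7, -0.34 to 0.14 for Serpinb8, -0.11 to 0.061 for Serpind1 and -0.0012 to 0.17 for Serpinf2. For kidney minus liver they ran from -0.0063 to 0.37 for Serpinb6b and -0.069 to 0.23 for Serpinc1. Genes under 1 CPM, such as Serpina1e and Serpina3f in kidney, rest on few counts, and the copies Serpina1a to Serpina1e share reads.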
